A study of Mus musculus with 2 samples.

Results

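The cells described here are those E14 mouse embryonic stem cells, an established line, in which the transcripts of 6 genes active around entry into S phase made up the largest share of all transcripts. The 6 genes are Ccne1, Ccne2, Cdc25a, Cdc6, Usp37 and E2f1. Barcodes with 2500 UMIs or more from 1000 genes or more, of which mitochondrial ones made up 10% or less, were kept (unique molecular identifiers, 1 for each transcript molecule that was captured). The score of a cell was its summed UMIs of the 6 genes per 10000 UMIs, and the top 10% of the pooled cells were taken. These high-score cells numbered 770 of 7709, with 564 of 4978 in control and 206 of 2731 in sonKD. They were selected on the measured values of the 6 genes, so the levels of those genes are a description of the choice and are not a finding. The cells are called by their score because the phase calls given below placed most of them in S phase and few in G1. Those calls hold no class for the step from G1 into S phase.

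Both libraries came from E14 cells of 129/Ola background in medium with 15% serum and leukaemia inhibitory factor on gelatin. The control library was made from cells given control siRNA by lipofection, and the sonKD library from cells given siRNA against Son, which encodes a splicing protein of nuclear speckles. Cells of both groups were taken 24 hours after transfection, frozen, thawed and sorted on the dye 7-AAD, then barcoded for 3' counting by the 10x Genomics Chromium v3 chemistry. Each group held 1 library, so no difference has a replicate check, and an effect of the knockdown and a difference between libraries cannot be told apart. No test was made. Intervals are at 95% and cover counting error only, apart from those of list medians, which are taken over genes.

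Entry into S phase is driven by cyclin E bound to Cdk2, which phosphorylates the retinoblastoma protein family and frees E2F factors to transcribe the genes of DNA replication. Mouse embryonic stem cells are known for a short G1 phase, for weak control by retinoblastoma proteins and for cyclin E-Cdk2 activity that varies little through the cycle. Cyclin E genes, Cdc25a, Cdc6 and E2f1 are themselves E2F targets in many cells.

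The promoters of 4 genes the results turn on are printed here to show the letters that were searched. Only windows that held a match and overlapped no annotated exon could be printed, so these 4 are examples chosen for their letters. They are RefSeq sequence of GRCm38.p6, given 5′ to 3′ on the strand of the gene, and each covers the 250 bases before an annotated start. Capitals mark matches, on either strand, to the E2F letters TTTCGCGC, TTTGGCGC, TTTCCCGC and TTTGCCGC in Cdc25a, Mcm6 and Uhrf1, and to the letters TTTGAA, the core of the cell cycle homology region (CHR), in Top2a. The Cdc25a window lies at chr9:109875329-109875578 on the plus strand, Mcm6 at chr1:128359706-128359955 on the minus strand, Uhrf1 (its window 2) at chr17:56304063-56304312 on the plus strand and Top2a at chr11:99024190-99024439 on the minus strand. None of the 4 stretches overlaps an annotated exon.
Cdc25a: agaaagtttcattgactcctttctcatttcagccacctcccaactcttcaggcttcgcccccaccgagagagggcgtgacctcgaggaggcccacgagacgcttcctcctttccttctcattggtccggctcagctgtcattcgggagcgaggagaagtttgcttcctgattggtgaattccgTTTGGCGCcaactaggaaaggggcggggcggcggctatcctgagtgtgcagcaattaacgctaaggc
Mcm6: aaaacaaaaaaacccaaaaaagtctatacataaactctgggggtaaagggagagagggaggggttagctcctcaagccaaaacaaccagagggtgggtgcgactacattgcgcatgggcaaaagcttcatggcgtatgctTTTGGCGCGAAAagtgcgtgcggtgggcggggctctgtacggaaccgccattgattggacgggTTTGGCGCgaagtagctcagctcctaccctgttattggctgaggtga
Uhrf1: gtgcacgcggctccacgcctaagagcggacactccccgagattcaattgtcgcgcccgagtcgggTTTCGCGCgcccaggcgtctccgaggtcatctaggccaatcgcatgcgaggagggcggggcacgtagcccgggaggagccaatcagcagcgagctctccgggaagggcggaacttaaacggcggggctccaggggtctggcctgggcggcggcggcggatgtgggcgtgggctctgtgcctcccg
Top2a: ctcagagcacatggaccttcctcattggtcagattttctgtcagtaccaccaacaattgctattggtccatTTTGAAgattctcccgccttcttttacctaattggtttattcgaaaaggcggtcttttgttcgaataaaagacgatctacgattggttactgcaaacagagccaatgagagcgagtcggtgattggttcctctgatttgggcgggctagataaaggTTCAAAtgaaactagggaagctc

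Cdc25a is a scored gene, Mcm6 and Uhrf1 were higher in high-score cells, and Top2a was lower. In Cdc25a the E2F letters start 67 bases before the gene's start. In Mcm6 they start 110, 106 and 47 bases before it, and the matches at 110 and 106 overlap by 4 bases in the run that reads through both. In Uhrf1 they start 185 bases before the start of window 2, while window 1, at the gene's other annotated start, holds none. In Top2a the CHR letters stand 179 and 23 bases before the start.

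Son, the target of the siRNA, was lower in sonKD within the high-score cells. It stood at 182 CPM (UMIs of a gene scaled to a common total of UMIs, interval 170 to 196) in the 564 control cells and at 111 CPM (97.6 to 126) in the 206 sonKD cells. The sonKD level was 61.0% of the control level (52.6 to 70.5). In the other cells Son stood at 167 and 105 CPM, or 63.1% of control (60.4 to 65.9). The intervals of both percentages overlap, so a different loss of Son in high-score cells was not detectable at this depth.

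High-score cells made up 11.3% of kept control cells (10.5 to 12.2) and 7.54% of kept sonKD cells (6.58 to 8.60). Depth moved with this difference. The median depth of all cells compared was higher in sonKD, with 7466 UMIs in control and 11072 in sonKD high-score cells, against 7783 and 11678 UMIs in the other cells. Within each library the share was lowest in the deepest cells, with no steady fall before them. In bins of 10% of the cells it ran between 10.0% and 15.9% over the 8 shallower control bins and was 6.22% and 5.63% in the deepest ones. In sonKD it ran between 5.86% and 12.1% over the 7 shallower bins and between 4.03% and 4.76% over the 3 deepest. With every cell thinned at random to 2500 UMIs, at least 3 UMIs of the scored genes were found in 9.46% of control cells (8.66 to 10.3) and in 8.90% of sonKD cells (7.86 to 10.0). At equal depth the intervals of the libraries overlapped.

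The score had no gap at the cut-off. The last cell taken had a score of 7.49, and the 10 scores just inside ran from 7.49 to 7.51 while the 10 just outside ran from 7.43 to 7.48. Within 0.5 of the cut-off lay 158 cells inside and 193 outside, so the high-score cells are treated here as a range of the score. Their median score was 8.98 in control and 8.85 in sonKD, against 3.33 and 3.13 in the other cells. The score rests on few molecules, with a median of 7 scored UMIs per high-score cell in control and 10 in sonKD. With so few, a gap in the underlying levels could not be seen in the score. When all cells were thinned to 2500 UMIs and scored again, 47.3% of the control and 49.0% of the sonKD high-score cells were among the new top 10%. The libraries shared 2 kept barcodes, and none of the high-score barcodes was shared.

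**Figure D1:**
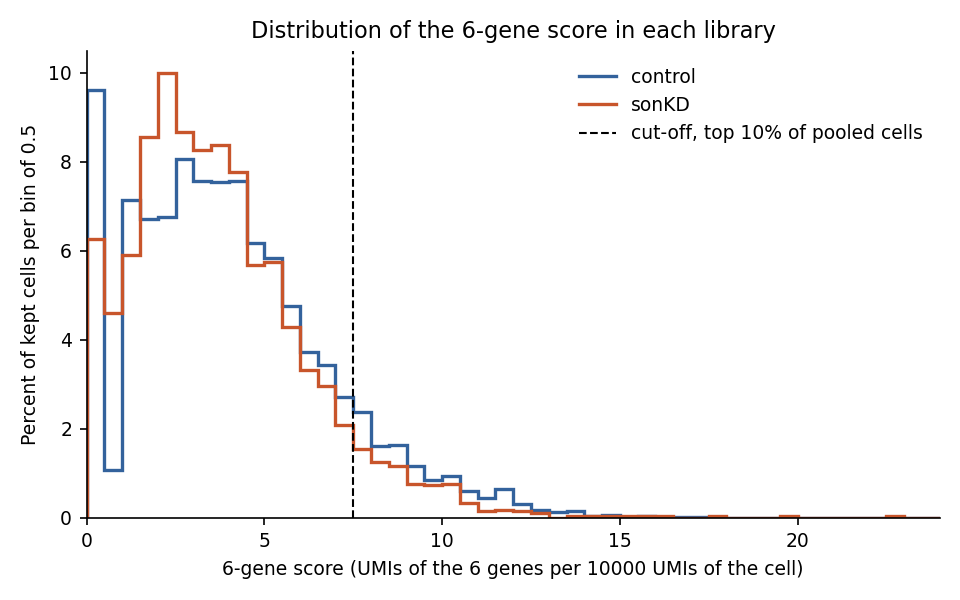
Percent of kept cells (y axis) in bins of the 6-gene score (x axis, UMIs of the 6 genes per 10000 UMIs) for control and sonKD, with the cut-off at 7.49 as a dashed line. Both distributions run through the cut-off without a dip, and the control line lies above the sonKD line just to its right.

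Ccne1, at chromosome 7, 38097984 to 38107534 on the minus strand (GENCODE M21, GRCm38), encodes cyclin E1. It stood at 248 CPM (233 to 263) in control high-score cells and 95.2 CPM in the other control cells, and at 327 CPM (303 to 352) and 113 CPM in sonKD. Ccne2, the cyclin E2 gene at chromosome 4, 11191351 to 11204779, stood at 29.7 CPM (24.7 to 35.4) against 8.42 CPM in control and at 24.8 CPM (18.6 to 32.4) against 7.1 CPM in sonKD. Ccne2 was found in few cells of either kind, with at least 1 UMI in 18.8% of control and 21.8% of sonKD high-score cells. Cdc25a, at chromosome 9, 109875579 to 109893895, encodes the phosphatase that activates Cdk2 and stood at 117 CPM (107 to 128) against 42.7 CPM in control and 93.8 CPM (81.3 to 108) against 37.9 CPM in sonKD.

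Cdc6, at chromosome 11, 98907801 to 98923940, loads the MCM helicase onto origins. It stood at 152 CPM (140 to 164) against 48.3 CPM in control, and at 150 CPM (134 to 167) against 46.7 CPM in sonKD. Usp37, at chromosome 1, 74435511 to 74544284, encodes a deubiquitinase that stabilises cyclin A. Its level was 299 CPM (283 to 316) against 107 CPM in control and 238 CPM (218 to 259) against 98.5 CPM in sonKD. E2f1, at chromosome 2, 154559407 to 154569892, encodes the activating E2F factor and stood at 91.8 CPM (82.9 to 101) against 41.8 CPM in control and at 74.9 CPM (63.9 to 87.3) against 31.4 CPM in sonKD. All 6 genes were higher in the cells chosen by them, by 2.20-fold (E2f1) to 3.53-fold (Ccne2) in control and by 2.39-fold (E2f1) to 3.50-fold (Ccne2) in sonKD.

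Free RNA gave UMIs of these genes as well. In barcodes with 100 to 500 UMIs, taken as droplets without a cell, Ccne1 had 99.1 CPM (control) and 104 CPM (sonKD), which is close to its level in the other cells. Usp37 stood at 26.8 and 18.4 CPM there and Cdc6 at 29.7 and 24.2 CPM. E2f1 had 33.4 and 22.5 CPM, Cdc25a 22.3 and 17.6 CPM and Ccne2 5.61 and 3.43 CPM. After Ccne1, E2f1 came closest in proportion to its level in the other cells. No cell type that lacks the scored genes was at hand as a background for shares of cells with a UMI.

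**Figure D2:**
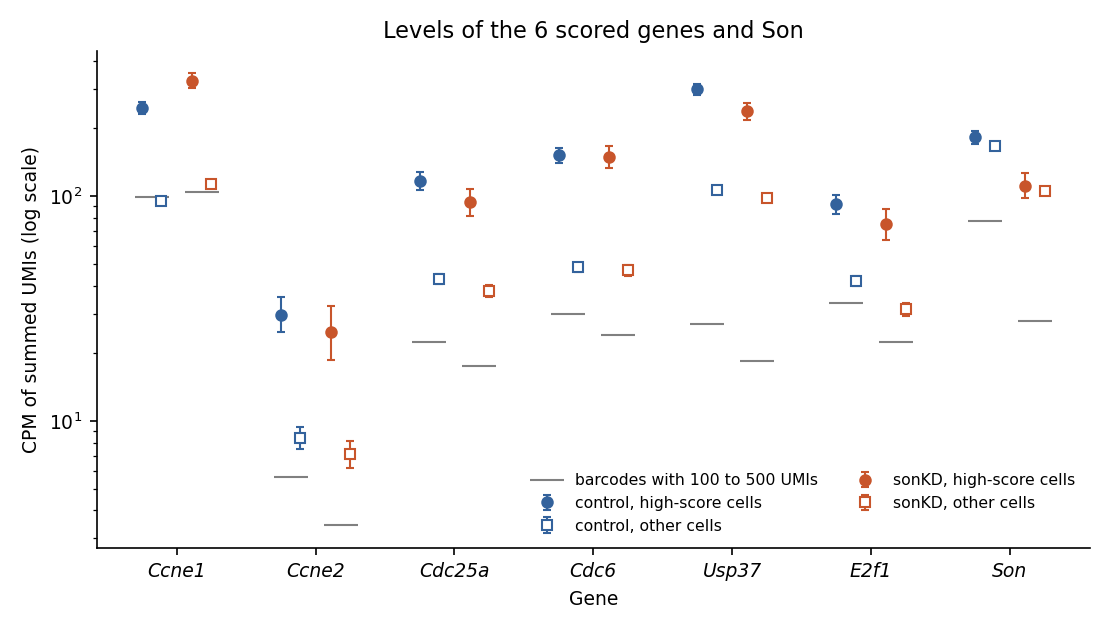
CPM of summed UMIs (y axis, log scale) for the 6 scored genes and Son in high-score cells (filled circles) and other cells (open squares) of each library, with exact Poisson 95% intervals, and grey lines at the level in barcodes with 100 to 500 UMIs. The scored genes are higher in high-score cells by their choice, and Son is lower in sonKD in both kinds of cell (111 against 182 CPM in high-score cells).

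High-score cells differed in which gene gave the score. In control, Usp37 alone had the most scored UMIs in 192 of 564 cells (34.0%) and Ccne1 in 133 (23.6%). In sonKD the order was turned, with Ccne1 leading in 83 of 206 cells (40.3%) and Usp37 in 56 (27.2%). Cdc6 led in 6.56% and 7.28% of the cells and Ccne2 in under 1%, with 3 cells in control and 1 in sonKD. At least 3 of the 6 genes were detected in most high-score cells, with a median of 4 genes in each library. In 26.4% of control and 31.6% of sonKD high-score cells, a lone gene gave over 50% of the scored UMIs.

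Between libraries, Ccne1 was the scored gene with a higher level in sonKD. Over all kept cells it had 111 CPM (control) and 127 CPM (sonKD), a log2 ratio of 0.20 (0.14 to 0.26). The other 5 were lower in sonKD, by log2 ratios of -0.13 for Cdc6, -0.23 for Usp37, -0.27 for Cdc25a, -0.35 for Ccne2 and -0.45 for E2f1. Summed over the 6 genes the ratio was -0.11 (-0.15 to -0.08). Within high-score cells Ccne1 in sonKD stood at 132% of control (120 to 145), and in the other cells at 118% (113 to 124). Usp37 stood at 79.6% of control (71.8 to 88.3) in high-score cells and at 92.2% (87.9 to 96.7) in the other cells. The choice of cells used these genes, so the values within high-score cells are a description.

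To see each scored gene where it had not chosen the cells, the top 10% was taken again on the other 5 genes. Cdc6 was then 1.59-fold higher in the chosen cells in control (1.42 to 1.78) and 1.72-fold in sonKD (1.47 to 2.01). Ccne2 was 1.97-fold (1.53 to 2.52) and 1.95-fold (1.31 to 2.81) higher. Cdc25a was 1.27-fold higher in control and 1.42-fold in sonKD, Usp37 1.27-fold and 1.34-fold, and Ccne1 1.26-fold and 1.28-fold, each with an interval above 1. E2f1 was 1.05-fold in control, with an interval of 0.91 to 1.22 that holds 1, and in sonKD its interval was 1.10 to 1.66. A gene left out of the score was thus higher in 11 of 12 cases by more than counting error at full depth, and in 3 of 12 with cells thinned to 2500 UMIs.

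In cells thinned to 2500 UMIs the same ratios were smaller or less precise. Cdc6 kept intervals above 1 in both libraries, with 1.38-fold in control (1.10 to 1.71) and 1.44-fold in sonKD (1.04 to 1.96). Cdc25a had 1.43-fold in control (1.13 to 1.79) and 1.01-fold in sonKD (0.66 to 1.5). Ccne1 was at 1.05-fold and 1.00-fold. Its intervals and those of Ccne2, Usp37 and E2f1 held 1 in both libraries. Co-detection of scored genes in these thinned cells was close to what the product of their shares gives. The ratio of observed to product had a median of 1.11 over the 15 pairs in control, from 0.77 to 1.38, and of 1.03 in sonKD, from 0.73 to 1.62. Ccne1 and Ccne2 were found together in 41 control cells, 1.36 times the product (0.97 to 1.84), and in 25 sonKD cells, 1.62 times the product (1.05 to 2.39). Cdc25a and Cdc6 were found together in 98 control cells, 1.22 times the product (0.99 to 1.49), and in 44 sonKD cells, 1.39 times (1.01 to 1.87).

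Phase calls from genes outside the score placed most high-score cells in S phase. Phases came from cell cycle lists without the 6 genes, scored in cells thinned to 2500 UMIs. In control, 370 of 564 high-score cells (65.6%, 61.5 to 69.5) were called S, against 46.8% of the other cells, a difference of 18.8 percentage points (14.4 to 23.0). In sonKD, 127 of 206 (61.7%, 54.6 to 68.3) were called S against 47.4%, a difference of 14.3 points (7.00 to 21.2). G2/M was called in 31.4% against 46.9% in control and in 34.5% against 42.3% in sonKD. G1, which is given to cells that score for neither list, was called in 3.01% against 6.28% and in 3.88% against 10.3%. The calls hold no class for the G1/S transition. An S call therefore cannot tell cells at that transition from cells in S phase, and the label was not tested by it. Without thinning, S was called in 71.8% against 51.1% in control and in 75.7% against 54.4% in sonKD.

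Read the other way, the scored genes were higher in S-called cells over all kept cells. Their summed level was 455 CPM in S-called, 363 CPM in G2/M-called and 299 CPM in G1-called control cells. In sonKD it was 419, 343 and 264 CPM. The log2 ratio of S-called over G2/M-called cells was 0.33 in control (0.28 to 0.37) and 0.29 in sonKD (0.24 to 0.34), and each of the 6 genes was above 0 in both libraries, from 0.15 for E2f1 in control to 0.70 for Ccne2 in sonKD. Ccne1 stood at 58.1 CPM in G1-called control cells and at 128 CPM in S-called ones. In control E2f1 differed least between these calls, with 46.4 CPM in G1-called and 49.3 CPM in S-called cells, whose intervals overlap. The intervals of the S over G1 ratio also held 0 for Usp37 and Ccne2 there. In sonKD that log2 ratio was 0.53 for E2f1 (0.15 to 0.94) and lowest for Usp37, at 0.43 (0.22 to 0.64).

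The share of high-score cells grew along the S phase list. Of the 10% of control cells with the lowest list level, 4.82% were high-score cells (3.11 to 7.09), and of the highest 10% it was 27.0% (23.1 to 31.1). In sonKD the share went from 2.19% (0.81 to 4.71) to 20.9% (16.2 to 26.2). Scored and ranked in cells thinned to 2500 UMIs, the shares went from 5.62% to 16.7% in control and from 4.74% to 16.9% in sonKD. Along the G2/M list at full depth the share was 4.43% (2.80 to 6.63) in the highest 10% of control cells, and in sonKD 2.56% (1.03 to 5.19) in the lowest 10% and 5.13% (2.83 to 8.45) in the highest. Scored and ranked in thinned cells, the highest 10% held 7.44% (5.30 to 10.1) in control and 10.6% (7.23 to 14.9) in sonKD. The low share at the top was thus less marked in control and not seen in sonKD. The lowest 10% in sonKD stood at 2.92% (1.27 to 5.67). Thinning also changed which cells were taken, so the part of depth in these changes was not tested.

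**Figure D3:**
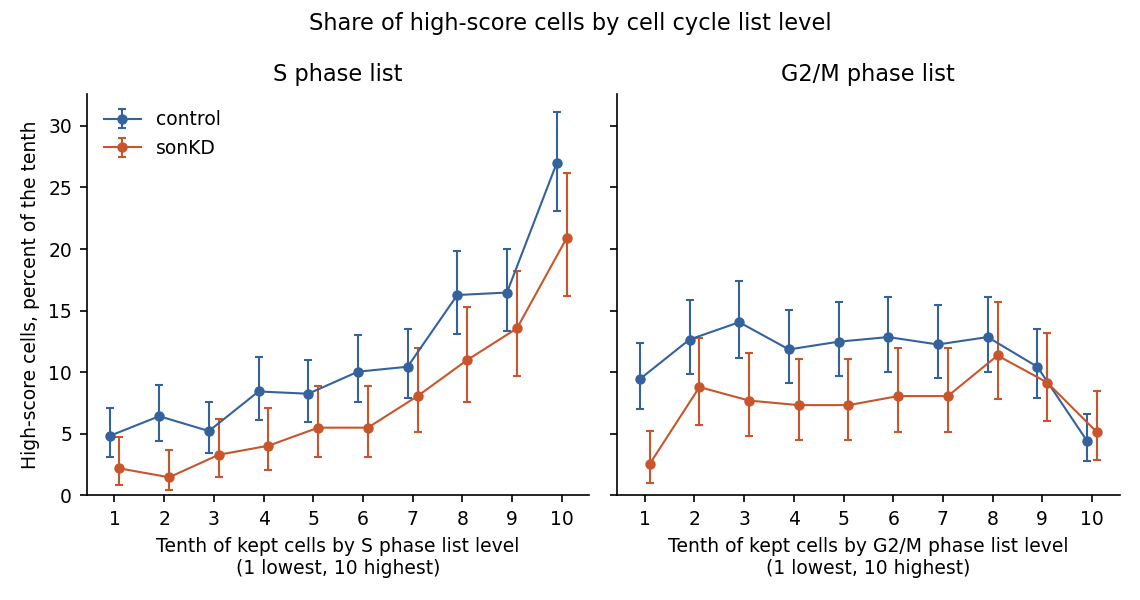
Share of high-score cells (y axis, percent with exact binomial 95% interval) in each of 10 equal bins of kept cells ranked by the summed level of the S phase list (left) or the G2/M list (right), in control and sonKD at full depth. Along the S phase list the share climbs to 27.0% in control and 20.9% in sonKD, and along the G2/M list it is 4.43% in the highest control bin, which was 7.44% in thinned cells.

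Other values that move with the score are given here once. High-score cells had fewer UMIs than the other cells (medians above), and at 2500 UMIs they had more genes, with medians of 1378 against 1344 in control and 1332 against 1286 in sonKD. Mitochondrial UMIs were at medians of 3.6% against 3.66% in control and 4.22% against 4.09% in sonKD. Transcripts of ribosomal proteins made up a smaller part of them, with medians of 19.9% against 21.2% in control and 22.7% against 24.6% in sonKD. Of 89 ribosomal protein genes, 76 in control and 78 in sonKD were lower in high-score cells, by a median log2 of -0.09 in each, and the lowest stood at -0.21 in control. The part of depth and of the ribosomal share in the ratios below was not tested.

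All ratios below are log2 ratios of CPM in high-score over other cells of the same library, among 6025 genes whose mean over the 4 sums reached 20 CPM, without the 6 scored genes. A gene is counted as past the fold when its ratio lies beyond 0.32 or -0.32, a rule of size and not a test. In control 231 genes were higher past that fold (3.83%) and 98 lower (1.63%). In sonKD, where fewer cells made the sums, 571 were higher (9.48%) and 223 lower (3.7%). In both libraries together 91 were higher (1.51%) and 34 lower (0.564%), while 4 passed the fold in opposite directions. Counts past the fold within the lists below stand beside these shares, and in short lists a count of none says little. The median of all genes was 0.04 in control and 0.05 in sonKD. Across genes, which are not replicates, the ratios of the libraries had a Pearson's r of 0.48. Scaling by the median of ratios turned the split to 46 higher and 53 lower, and scoring the cells at 2500 UMIs left 15 higher and 5 lower.

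Among the 15 highest genes was Ung, uracil-DNA glycosylase of base excision repair, which stood at 74.4 CPM in high-score and 53.7 CPM in other control cells (log2 0.47, 0.30 to 0.65). In sonKD Ung stood at 86.9 against 59.7 CPM (0.54, 0.32 to 0.76). Ntn1, which encodes the secreted ligand netrin-1, was at the top, with 95.4 against 61.5 CPM in control (0.63, 0.48 to 0.79) and 94.7 against 52.6 CPM in sonKD (0.85, 0.63 to 1.06). Nsd2, a histone methyltransferase gene, was at 36.2 against 26.8 CPM in control (0.43) and 33.6 against 21.1 CPM in sonKD (0.67). Ncapg2, of the condensin II complex, was at 38.5 against 30.5 CPM (0.34) and 40.0 against 24.9 CPM (0.68). Ercc6l, whose product acts on DNA bridges in anaphase, was at 45.0 against 34.9 CPM (0.37) and 47.8 against 30.0 CPM (0.67).

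Elavl2, an RNA-binding protein gene, had log2 ratios of 0.45 in control and 0.61 in sonKD, and Utp14b, of ribosome assembly, 0.45 and 0.78. Pask, a kinase gene, was at 0.59 and 0.80, Pisd, of phosphatidylserine decarboxylation, at 0.64 and 0.52, and Dock3, of a guanine nucleotide exchange factor, at 0.65 and 0.51. Magi3, of a junction scaffold, was at 0.56 and 0.45 and Ttll4, of a tubulin-modifying enzyme, at 0.36 and 0.66. The rest of the 15 were Gm14139 (0.52 and 0.73), Gm37240 (0.51 and 0.72) and Rhox5, an X-linked homeobox gene (0.50 and 0.51). Gm14139 in sonKD was at -0.00 with cells scored at 2500 UMIs, and Rhox5 in sonKD was at -0.72 in the top 5%. Reads of Utp14b and of the Gm genes may come from related copies, which the counts cannot tell apart. Most of these 15 genes stood under 50 CPM, where the counting interval is wide.

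Among the 10 lowest genes was Prc1, though mitotic genes stood among the highest too (Ncapg2 and Ercc6l). Prc1, which bundles microtubules of the spindle midzone, stood at 119 CPM in high-score and 202 CPM in other control cells (-0.77, -0.90 to -0.64) and at 136 against 183 CPM in sonKD (-0.43, -0.60 to -0.26). Aurkb, the kinase of the chromosomal passenger complex, stood at 20.9 against 32.9 CPM in control (-0.65) and 16.5 against 27.7 CPM in sonKD (-0.75). Cdca2, which targets a phosphatase to anaphase chromatin, stood at 59.0 against 94.3 CPM (-0.68) and 54.2 against 77.6 CPM (-0.52). Fzr1, the activator of the anaphase-promoting complex in late mitosis and G1, stood at 29.5 against 46.2 CPM (-0.65, -0.92 to -0.39) and 20.7 against 32.7 CPM (-0.66, -1.13 to -0.23). With cells scored at 2500 UMIs, Fzr1 in sonKD was at 0.05.

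The lowest mean ratio was that of Trib3, a pseudokinase gene induced by the integrated stress response, with 21.9 against 32.6 CPM in control (-0.58) and 15.6 against 28.5 CPM in sonKD (-0.87). Wwox, an oxidoreductase gene that spans a common fragile site, stood at 137 against 203 CPM in control (-0.58, -0.70 to -0.45) and at 135 against 198 CPM in sonKD (-0.55, -0.72 to -0.38). Ano3 had ratios of -0.50 and -0.89, and Rora, of a nuclear receptor, of -0.57 and -0.62. Arl8a, of lysosome movement, was at -0.77 and -0.46 and Anxa2, of annexin A2, at -0.53 and -0.67.

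**Figure D4:**
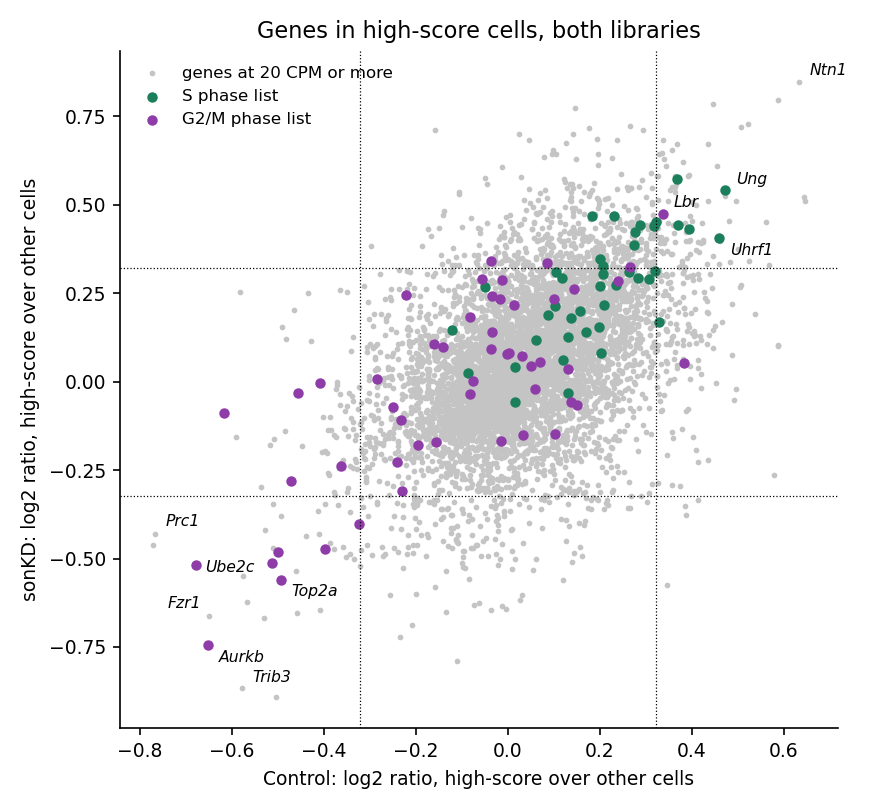
Log2 ratio of high-score over other cells in control (x axis) and sonKD (y axis) for the 6025 genes at 20 CPM or more, with the S phase list in green and the G2/M list in purple; dotted lines mark 0.32 and -0.32. Most S phase genes lie to the upper right, while the G2/M genes spread from Lbr (0.34 and 0.47) to Aurkb (-0.65 and -0.75).

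Genes of origin licensing load the MCM helicase in G1. Of 15 listed genes all reached 20 CPM, all 15 had ratios above 0 in each library, and the medians were 0.17 in control and 0.20 in sonKD against 0.04 and 0.05 over all genes. Past the fold lay 2 in control and 4 in sonKD, and Mcm4 in both, against 3.83%, 9.48% and 1.51% higher over all genes. Mcm4 stood at 266 against 213 CPM in control (0.32, 0.23 to 0.41) and 252 against 184 CPM in sonKD (0.45, 0.32 to 0.58). Its control ratio of 0.3221 only just passed the cut-off of 0.3219. The other helicase subunits had ratios of 0.20 and 0.35 (Mcm6), 0.17 and 0.22 (Mcm3), 0.10 and 0.21 (Mcm2), 0.09 and 0.19 (Mcm5) and 0.07 and 0.21 (Mcm7). Orc1 and Orc2, of the origin recognition complex, were at 0.31 and 0.41 and at 0.29 and 0.34. Cdt1, the partner of Cdc6 in loading, was at 0.11 and 0.20 with intervals that hold 0 in both libraries.

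Genes of origin firing and of the fork had medians of 0.17 in control and 0.13 in sonKD over 35 genes, of which 30 and 27 were above 0. Wdhd1, which ties the helicase to the primase, was the 1 gene past the fold in both libraries (0.36 and 0.55). Clspn, the fork checkpoint mediator, was at 0.318 and 0.44, just short of the fold in control, and Mcm10 at 0.27 and 0.44. Pcna, the sliding clamp, was at 0.20 (0.11 to 0.29) and 0.15 (0.02 to 0.29), but at -0.03 in control with cells scored at 2500 UMIs. Of 17 genes of nucleotide supply none passed the fold in both libraries (1.51% higher and 0.564% lower over all genes), and the medians were 0.09 and 0.11. Rrm2, the regulated subunit of ribonucleotide reductase, was at 0.29 and 0.44 and Rrm1 at 0.20 and 0.27.

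The S phase list, which shares genes with those lists, had the highest medians of the lists with at least 5 genes. Its 41 genes had a median of 0.20 in control and 0.29 in sonKD, with 38 and 39 genes above 0. Past the fold and higher were 7 in control, 14 in sonKD and 6 in both (Ung, Dscc1, Uhrf1, Chaf1b, Dtl and Mcm4), and none was lower in either library. Over all genes 3.83% were higher in control, 9.48% in sonKD and 1.51% in both. Uhrf1, which brings Dnmt1 to hemimethylated DNA, stood at 210 against 153 CPM in control (0.46, 0.36 to 0.56) and at 137 against 103 CPM in sonKD (0.40, 0.23 to 0.58). Dtl, the substrate receptor that marks Cdt1 for degradation in S phase, was at 0.37 and 0.44. Slbp, which binds histone messenger RNA, was at 0.26 and 0.31. Genes of DNA damage checkpoint and repair had medians of 0.17 and 0.27 over 22 genes, with Ung and Bard1 past the fold in both libraries. Brca1 was at 0.31 and 0.43 and Fancm at 0.32 and 0.43, but Fancm was at -0.02 in control with cells scored at 2500 UMIs.

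Histone genes did not share this direction. Of 64 replication-dependent histone genes 8 reached 20 CPM, with medians of -0.12 in control and -0.38 in sonKD, and Hist1h1d was lower past the fold in both (-0.44 in each). Hist1h2ae stood at 65.4 against 70.7 CPM in control and at 140 against 190 CPM in sonKD. Most messages of these genes lack a poly(A) tail, and near-identical copies share reads, so their counts are uncertain.

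The E2F and pocket protein list had medians of 0.02 in control and 0.16 in sonKD over 11 genes. None passed the fold in both libraries (1.51% higher and 0.564% lower over all genes). E2f3 was at 0.23 and 0.25, Tfdp1, the dimer partner, at 0.19 and 0.26, and Lin52 at 0.39 and 0.16. E2f7 and E2f8, the repressors that act later in S phase, had means under 20 CPM over the 4 sums and stand outside the counts. E2f7 was at 26.4 against 16.3 CPM in control (0.70, 0.39 to 0.99) and 21.1 against 15.3 CPM in sonKD (0.46, -0.01 to 0.90). E2f8 was at 19.3 against 14.3 CPM (0.43, 0.08 to 0.77) and 23.9 against 12.2 CPM (0.97, 0.52 to 1.39). E2f2, which also stands outside these counts, was at 0.12 and 0.62.

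G1 cyclins, kinases and inhibitors had medians of 0.04 and 0.08 over 12 genes, near those of all genes. Cdkn1a, the p21 inhibitor of Cdk2, stood at 36.9 against 52.5 CPM in control (-0.51, -0.76 to -0.27) and 35.8 against 49.6 CPM in sonKD (-0.47, -0.82 to -0.14). Cdk6, a kinase that pairs with D-type cyclins, stood at 65.2 against 55.5 CPM in control (0.23, 0.04 to 0.41) and at 69.9 against 53.9 CPM in sonKD (0.37, 0.12 to 0.62). Cdkn1b, the p27 inhibitor, was at -0.04 and -0.25 with intervals that hold 0. Ccnd1 was at 0.15 and 0.20 and Ccnd3 at -0.01 and 0.25. Cdk2 itself stood near 10 CPM and its intervals held 0 in both libraries (-0.17 and 0.52). The ubiquitin list had medians of 0.05 and 0.12 over 18 genes. Skp2, which marks p27 for degradation, was at 0.18 (-0.09 to 0.43) in control and at 0.72 (0.39 to 1.03) in sonKD.

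The G2/M list was divided. Its 52 genes had medians of -0.05 (-0.19 to -0.001) in control and 0.00 (-0.07 to 0.08) in sonKD. The sonKD median was below 0 under median of ratios scaling. Summed over all 56 listed genes the log2 ratio was -0.10 (-0.12 to -0.09) in control and -0.02 (-0.04 to 0.004) in sonKD. Past the fold in control 12 were lower and 2 higher, against 1.63% and 3.83% over all genes. In sonKD 7 were lower and 4 higher, against 3.7% and 9.48%. Past the fold in both libraries 7 were lower (Aurkb, Cdca2, Top2a, Ube2c, Ckap2l, Smc4 and Psrc1) and 1, Lbr of the nuclear envelope, was higher. Over all genes 0.564% were lower and 1.51% higher. Top2a, the topoisomerase whose promoter is printed above, stood at 329 against 463 CPM in control (-0.49, -0.57 to -0.41) and at 247 against 364 CPM in sonKD (-0.56, -0.69 to -0.43). Ccnb1, the mitotic cyclin, was at -0.24 and -0.23, while Ccna2, which acts in S phase and G2, was at 0.30 and 0.27. Ccnb1 in sonKD was at 0.08 with cells scored at 2500 UMIs. High-score cells called G2/M held Top2a at 411 CPM in control, less than the other cells of all phases together, and the S-called ones held 289 CPM. Top2a is in the list used for the calls, so its difference between S-called and G2/M-called cells follows in part from the call.

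**Figure D5:**
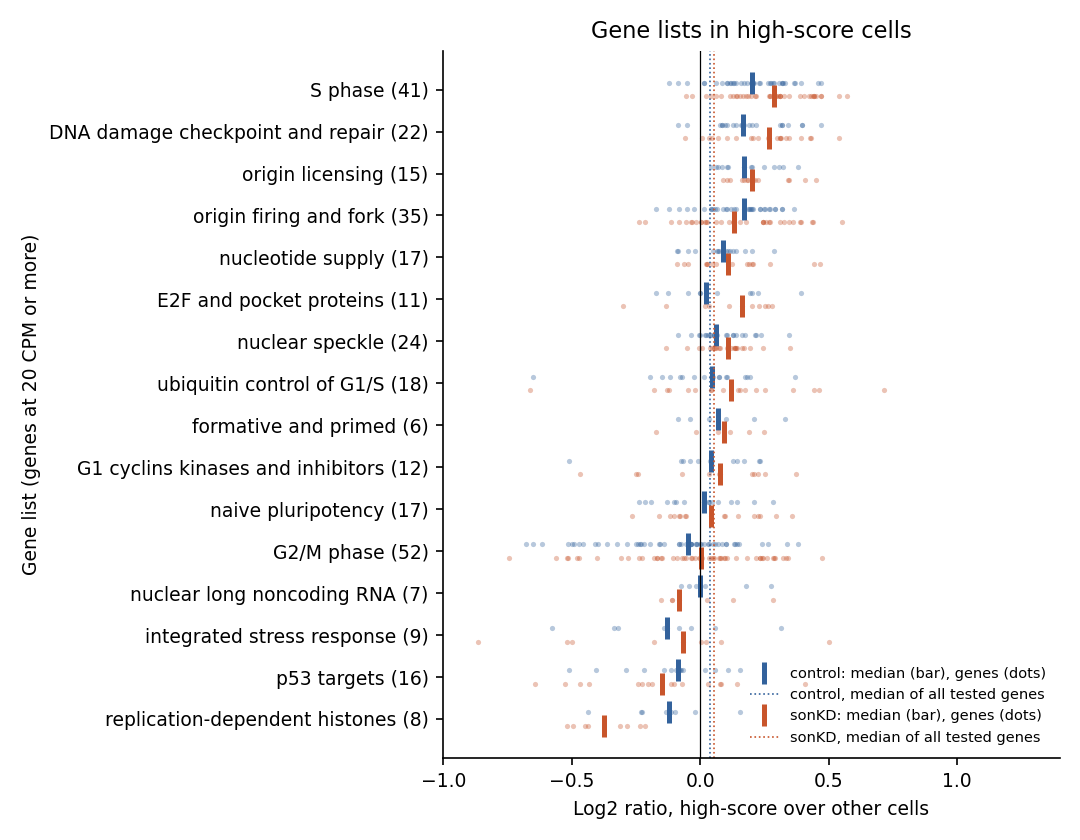
Log2 ratio of high-score over other cells (x axis) for the genes of each list with at least 5 genes at 20 CPM (y axis, number of genes in brackets); dots are genes, bars are list medians, and dotted lines are the medians of all 6025 genes (0.04 in control and 0.05 in sonKD). The S phase list has the highest medians (0.20 and 0.29). The medians of the histone, p53 and stress lists lie below 0, and of these only the histone median in sonKD has an interval over genes below 0.

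Pluripotency genes differed little. The naive list had medians of 0.02 in control and 0.04 in sonKD over 17 genes. None passed the fold in both libraries, against 1.51% higher and 0.564% lower over all genes, so this count says little. Pou5f1 stood at 1042 against 1111 CPM in control (-0.09) and 872 against 919 CPM in sonKD (-0.08). Sox2 was at -0.13 and -0.12, Nanog at 0.01 and -0.06, Klf2 at -0.24 and -0.27 and Tet2 at 0.21 and 0.36. The formative and primed list had medians of 0.07 and 0.09 over 6 genes. Pou5f1, Sox2 and Nanog, which define embryonic stem cells, were thus present in high-score cells at log2 ratios between -0.13 and 0.01.

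Markers of other cell types were low and gave few genes to compare. Summed over its list, primitive endoderm stood at 422 CPM in high-score and 423 CPM in other control cells and at 419 against 401 CPM in sonKD, mostly Sparc and Lamc1. Neuroectoderm stood at 131 against 123 CPM and 111 against 107 CPM, trophectoderm at 78.7 against 68.5 CPM and 76.8 against 92.8 CPM, and mesoderm at 41.1 against 40.7 CPM and 28.0 against 32.6 CPM. The fibroblast list stood at 221 against 192 CPM in control (log2 0.20, 0.10 to 0.30) and at 197 against 157 CPM in sonKD (0.33, 0.18 to 0.47). Nearly all of that sum was Fn1, the fibronectin gene, with 215 and 191 CPM in high-score cells, and 6 and 7 of its 11 genes were at 0 in high-score cells. All 13 measured genes of the 2C-like list were at 0 in high-score cells of both libraries. Their part in the ratios above was not tested.

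The p53 and stress lists had medians below 0, with intervals over genes that hold 0 in both libraries. For 16 p53 target genes the medians were -0.09 (-0.22 to 0.02) in control and -0.15 (-0.43 to 0.08) in sonKD. Of them 4 and 5 were above 0, and Cdkn1a and Perp were lower past the fold in both libraries. Summed over all 26 listed p53 targets the log2 ratio was -0.11 (-0.14 to -0.07) in control and -0.16 (-0.20 to -0.11) in sonKD. Perp was at -0.41 and -0.64, though at 0.01 in control with cells scored at 2500 UMIs. The 9 genes of the integrated stress response had medians of -0.13 (-0.33 to 0.06) in control and -0.07 (-0.52 to 0.08) in sonKD. Of them 2 and 4 were above 0. Summed over all 17 listed genes the log2 ratio was -0.02 (-0.06 to 0.01) in control and 0.01 (-0.04 to 0.07) in sonKD. Atf4, the central factor of this response, was at 103 against 130 CPM in control (-0.33) and 84.6 against 120 CPM in sonKD (-0.50). Trib3 was the other gene of that list past the fold in both, and Nupr1 was at -0.32 and -0.52, the latter at 0.02 with cells scored at 2500 UMIs. Hspa5, an endoplasmic reticulum chaperone named after its values were seen, went the other way at 0.31 and 0.50.

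Nuclear speckle genes, to which Son belongs, had medians of 0.06 in control and 0.11 in sonKD over 24 genes. None passed the fold in both libraries (1.51% higher and 0.564% lower over all genes). Srsf1 was at 0.35 and 0.14 and Pnn at 0.21 and 0.19. Nuclear long noncoding RNAs had medians of -0.00 and -0.08 over 7 genes. Malat1 stood at 2664 against 2631 CPM in control and at 2228 against 2189 CPM in sonKD, so that this retained nuclear RNA did not separate high-score cells from the others. Meg3 was at 0.28 in each library.

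Likeness to the score across cells was weak for every gene. In cells thinned to 2500 UMIs, the 10 genes with the highest mean Pearson's r with the 6-gene score over the 4978 control and 2731 sonKD cells were Hspd1, Ncl, Chd4, Prrc2c, Hnrnpab, Nasp, Npm1, Hells, Dnaja2 and Ntn1. Their mean r ran from 0.12 for Hspd1 to 0.07 for Ntn1. Nasp, a histone chaperone gene, and Hells, a chromatin remodeller gene, belong to the S phase list. Hspd1, of the mitochondrial chaperonin, stood at 2372 against 2060 CPM in control (0.20) and 2202 against 1874 CPM in sonKD (0.23). Points share the cell's library and composition, and in counts this sparse an r of this size is no finding. The lowest mean r were those of Eef1a1 and ribosomal protein genes, down to -0.10 for Rps19.

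The sonKD over control ratios of single genes were compared between high-score and other cells. Over 3255 genes at a mean of 50 CPM or more, the log2 ratio in high-score cells minus that in the other cells had a median of 0.01, a 5th percentile of -0.21 and a 95th of 0.26. The median counting half-width of that difference was 0.25. The difference lay beyond its own half-width in 276 of the 3255 genes (8.48%). S100a6, a calcium-binding protein gene, went from 93.7 CPM in control to 157 CPM in sonKD high-score cells (log2 0.75, 0.53 to 0.96). In the other cells it was at 103 and 247 CPM (1.26, 1.21 to 1.32), so the difference was -0.52 with a half-width of 0.22. Aurka, the mitotic kinase gene, went from 40.9 to 56.5 CPM in high-score cells and from 62.7 to 60.2 CPM in the others, a difference of 0.53 with a half-width of 0.36.

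Acp6 had the highest such difference, at 47.6 and 74.0 CPM in high-score cells and 64.3 and 62.2 CPM in the others (0.68, half-width 0.32). Sema5b (0.56), Ptbp3 (0.56) and Napa (0.49) followed it with Aurka, and Bag4 (-0.48), Vwa8 (-0.49), Morc1 (-0.52) and Ctr9 (-0.54) stood with S100a6 at the low end. These are the extremes of 3255 genes, chosen by size, and were not tested.

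Promoter letters were counted as a description of the higher and lower genes. Over 32851 RefSeq promoter windows, from 250 bases before to 50 bases after a start, 2.26% held at least 1 of the 4 E2F letter sets on either strand. Of 4850 tested genes with a window 5.94% held one. Of the 91 genes higher in both libraries 70 were matched and 9 held one (12.9%), and of the 34 lower genes 23 were matched and 1 held one (4.35%). Of 5 matched scored genes it was 2, Cdc25a and Cdc6. Among lists, the letters stood in 8 of 13 origin licensing genes and 11 of 32 S phase genes, as in the Mcm6 and Uhrf1 sequences above. In the G2/M list they stood in 3 of 49 genes.

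The CHR letters TTTGAA, on either strand, showed another distribution. They stood in 17.9% of all windows and in 14.3% of the tested genes, and in 34 of 49 G2/M genes (69.4%), as in Top2a. Of the matched scored genes none held them. Of the higher genes 7 of 70 held them (10.0%), and of the lower genes 5 of 23 (21.7%). A match is a description of letters, and no binding was measured.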

How the data were processed

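Transcripts were measured in single cells of 1 control and 1 sonKD library, grouped by sample title. The deposited values are whole-number UMI counts of each gene in each barcode, unfiltered for cells. Per the file headers the authors made them with Cell Ranger 7.1.0, and the submitters' processing notes name the build mm10. Which annotation was used, and whether intronic reads were counted, is not given in the sources used here. No column of values was left unmapped.

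The libraries held 71046373 (control) and 60352438 (sonKD) UMIs over 32285 listed genes. Of these gene identifiers, 32158 occur in GENCODE M21 (GRCm38), which gave gene positions. Analysis used Python 3.11.15 with scanpy 1.11.5, scipy 1.17.1 and pandas 2.3.3. UMIs were summed over high-score and over other cells of a library and scaled to CPM. A count under 3 was set to 3. Intervals were exact Poisson (sums), exact binomial (shares) and exact conditional binomial (ratios), and those of list medians came from the ranked genes. A difference of shares combined the bounds of both as a root sum of squares. The scripts were tested on simulated data. For a share or level at equal depth each cell was thinned to 2500 UMIs, which left out no kept cell, and tied thinned scores were broken at random. Phases were scanpy cell cycle calls. Free RNA was read from barcodes with 100 to 500 UMIs. Doublets were kept, since the Scrublet call marked 0.0603% of control and 0.0366% of sonKD cells, under the 0.5% of a working call. With the highest scores removed by rate in an alternative, 1.95% of control and 0.971% of sonKD high-score cells were lost.

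The cells, gene lists, named genes and thresholds were chosen with earlier results of these data known. Named genes are the 6 scored genes and Son, the 15 highest and 10 lowest past a log2 ratio of 0.32 either way in both libraries by mean log2 ratio at 20 CPM or more, the 3 genes of each list farthest from 0, a fixed set of cell cycle and pluripotency genes, the 10 most like the score, and the 5 highest and 5 lowest differences between libraries at 50 CPM. Chaf1b, Lbr, Ube2c, Ckap2l, Smc4, Psrc1, Bard1, Hspa5, Eef1a1 and Rps19 were named after their values were seen. Alternatives changed the depth treatment, the share taken, the cell and gene filters, the scaling, the summing and the doublets.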

Additional observations from a re-analysis of the deposited data

How the results depend on the processing

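No paired analysis was possible because each group held 1 sample, and the shared replicate number 1 only names the samples. Of 105 alternative values of the 11 main results 83 kept their size, 22 moved and none of the called ones reversed. Of 304 values of the other lists 291 kept, and of 1908 values of single genes 1769. Ratios and shares were said to keep when they lay within the interval of the main value, whatever their side of 0. The sign changed for 1 of the 105 values, 20 of the 304 and 63 of the 1908. The genes higher in both libraries (91) came to 15 with cells scored at 2500 UMIs, 239 in the top 5%, 30 at 50 CPM, 46 under median of ratios scaling and 4245 without a filter on low genes; the genes lower (34) came to 5, 78, 13, 53 and 459. Without the filter the count grows by construction, since counts under 3 are set to 3 against smaller sums. With cells scored at 2500 UMIs, which leaves fewer scored UMIs a cell, the S phase list median was 0.11 in control and 0.18 in sonKD, the S-called share of high-score cells exceeded that of others by 10.6 points in control, and log2 ratios turned for Gm14139 (-0.0048), Fzr1 (0.0467), Nupr1 (0.0166), Ccnb1 (0.0774) and Pou5f1 (0.0096) in sonKD and for Fancm (-0.0237), Perp (0.0103) and Pcna (-0.0308) in control. The share of high-score cells was 10.1% in control and 9.78% in sonKD there, 10.0% and 9.89% when taken within 10 bins of depth, 5.79% and 3.55% in the top 5%, and 9.98% and 10.0% when taken in each library alone, an alternative chosen after seeing the data. In the top 5% the G2/M median in sonKD was 0.14 and Rhox5 in sonKD -0.72. With at most 5% mitochondrial UMIs Rhox5 in sonKD was -0.023 and Neat1 0.0145. Without a filter on low genes the histone median in sonKD was 0.0366. The cause of the other changes was not tested. Phases in cells thinned to 5000 UMIs left out 514 control and 172 sonKD cells.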

Other observations

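High-score cells called S and called G2/M were set side by side in scored and other genes. All of them were chosen on the summed level of the scored genes. In control, the 370 S-called high-score cells had Ccne1 at 245 CPM and Cdc6 at 164 CPM, and the 177 G2/M-called ones had 262 and 134 CPM. In sonKD, the 127 S-called ones had 316 and 151 CPM, and the 71 G2/M-called ones 352 and 149 CPM. Ccne2 stood at 34.1 CPM in S-called and 22.3 CPM in G2/M-called cells in control, and Usp37 at 252 and 206 CPM in sonKD. Mcm6, the helicase subunit gene, stood at 359 CPM in S-called and 296 CPM in G2/M-called high-score cells in control, and at 361 and 280 CPM in sonKD. Prc1, of the spindle midzone, stood at 102 and 151 CPM in control and at 122 and 165 CPM in sonKD. Mcm6 and Prc1 are in or close to the lists used for the calls. Their differences between the calls follow in part from the calls, and these values are a description. Median depths of the S-called and G2/M-called high-score cells were 7478 and 7523 UMIs in control.

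Agreement between libraries grew with the level of the genes. Across genes, Pearson's r of the control and sonKD ratios of high-score over other cells was 0.38 for the 2770 genes at 20 to 50 CPM and 0.82 for the 481 genes at 300 CPM and over. Of the 91 higher genes, 61 stood at 20 to 50 CPM and none at 300 CPM and over.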
